A study of Mus musculus with 18 samples.

Results

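The septic intestine of mice that breathed hydrogen gas was compared with that of septic mice that did not, over 6 of the 18 libraries of the study. They were chosen by their titles, as H2 intestine 1 to 3 and control intestine 1 to 3. The description labels of the H2 libraries 2 and 3 write the gas as H3 and H4, which was taken for a slip in numbering, since their titles and source names say H2. All mice were C57BL/6 males, 9 weeks old, with cecal ligation and puncture, an operation in which the cecum is tied and pierced so that gut bacteria enter the abdomen. The H2 mice (n = 3 libraries) inhaled 7% hydrogen continuously, starting directly after the operation. The control mice (n = 3 libraries) had the operation without the gas. All tissue dates from 24 h after the operation. The H2 mice were kept together in a box that received the gas, so the gas and the housing cannot be told apart. The labels name no genetic change, no segment of the intestine and no layer of its wall and do not tie the organs to single mice. Nothing in the labels says outright that the libraries of a group come from separate animals, so p-values measure only the spread between these samples, which may be technical.

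The small intestine is lined by a single layer of epithelium. Enterocytes absorb fat, sugar and amino acids, goblet cells make mucus, and Paneth cells at the base of the crypts release lysozyme and defensins into the lumen. Beneath lie fibroblasts, vessels, nerves and smooth muscle, and outside the wall the mesentery carries fat. In sepsis, bacterial products start NF-kB, interferon and STAT3 signalling in epithelium, vessels and leukocytes, which make cytokines, chemokines, adhesion molecules and acute-phase proteins. Hydrogen is a gas studied for antioxidant and anti-inflammatory action.

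Poly(A) RNA was sequenced, and levels are FPKM, fragment numbers scaled by the length of the transcript and by the depth of the library. They are given in the order of libraries 1, 2 and 3 of a group. Differences are H2 minus control on log2(FPKM + 1), each ± SE with 3 libraries in each group, and are smaller than true log2 fold changes for genes of low level. A gene is said to be higher or lower in every H2 library where all 3 H2 values lie on one side of all 3 control values. The implied depth, estimated from the FPKM worth of 1 fragment and given in units of 1000000 fragments, was 10.7, 12.9 and 10.2 in the control libraries and 12.3, 8.51 and 10.2 in the H2 libraries. Each intestine library carried the enterocyte actin-bundling gene Vil1 at 332 FPKM or more, against at most 0.45 FPKM in liver and lung. The club cell gene Scgb1a1, which belongs to the airway, was listed at 3.22 and 5.27 FPKM in control 1 and H2 1 and at 0 in the other 4 libraries.

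Over 11910 genes with a mean of at least 1 FPKM, limma's moderated test with Benjamini-Hochberg adjustment called 1 gene (0.00840%), and 1485 genes (12.5%) had an unadjusted p under 0.05. The groups did not overlap for 2300 genes (19.3%), 1258 of them higher in every H2 library (10.6%) and 1042 lower (8.75%). The median log2 difference over all tested genes was 0.019. The split between higher and lower depends on the scaling. Of the genes without overlap, 54.7% were higher with the deposited FPKM, 64.3% among genes with a mean of at least 5 FPKM, and 12.4% after each library was rescaled to the same sum (TPM), which moved the median of all genes to -0.25. H2 2 held the largest sum of FPKM, 1142966, against 712858 to 850609 in the other libraries. Each count of calls changed with single libraries: 2, 5 and 5 genes were called without control 1, 2 and 3, and 8, 2 and 16 without H2 1, 2 and 3.

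The libraries of a group differed from each other in ways that touch the comparison. The median within-group SD over the tested genes was 0.20 in control and 0.26 in H2 on the log2 scale. Pearson's r across genes lay between 0.937 and 0.965 within control, between 0.945 and 0.954 within H2, and between 0.920 and 0.959 across the groups, so the ranges overlapped. These correlations are across genes, which are not independent replicates. Sets of genes that mark fat, position along the gut, muscle and neutrophil activation stood apart in some libraries. They are given first, since results below move with them.

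Several defining genes of fat cells were at or near 0 in H2 1 and H2 2. Adiponectin, the hormone gene Adipoq that defines fat cells, measured 20.8, 17.5 and 14.5 FPKM in the control libraries and 0.0704, 0.0997 and 11.6 FPKM in the H2 libraries. The fat cell complement factor Cfd measured 131, 57.3 and 76.98 FPKM in the control libraries and 0.302, 0.551 and 49.8 FPKM in the H2 libraries. Resistin, Retn, stood at 25.4, 17.9 and 15.5 FPKM in the control libraries and 0, 0.273 and 11.5 FPKM in the H2 libraries. H2 1 and H2 2 lay at or near 0 for all 3 genes, while H2 3 lay just below the control range. Fabp4, a fatty acid carrier of fat cells and capillaries, measured 218, 201 and 178 FPKM in the control libraries and 42.3, 46.7 and 138 FPKM in the H2 libraries, and the stearoyl desaturase Scd1 32.3, 36.1 and 37.3 FPKM in the control libraries and 0.716, 2.18 and 23.8 FPKM in the H2 libraries. The carbonic anhydrase Car3, abundant in fat, measured 32.4, 6.301 and 16.2 FPKM in the control libraries and 0, 0.0773 and 4.81 FPKM in the H2 libraries, and haptoglobin, Hp, an acute-phase protein that fat cells also make, 172, 229 and 197 FPKM in the control libraries and 12.9, 6.01 and 174 FPKM in the H2 libraries. Of the 20 genes of the fat list, 15 passed the filter. Of these, 7 were lower in every H2 library, against 8.75% over all tested genes. The list's median difference was -0.92, and it ran from -1.41 to -0.67 as each library was left out. Leptin, Lep, was listed at 0 in H2 1 and H2 2 and at 1.77 FPKM in H2 3, within the control values of 1.45, 1.59 and 1.93. Other genes of lipid storage did not follow: the lipase gene Lipe, at 21.4, 13.3 and 12.4 FPKM in the control libraries and 11.9, 18.95 and 21.6 FPKM in the H2 libraries, and Cidec, at 61.4, 32.2 and 33.8 FPKM in the control libraries and 37.3, 35.7 and 29.9 FPKM in the H2 libraries, overlapped between the groups. Fewer cells of a type and less RNA per cell cannot be told apart in these bulk libraries. Without H2 3, 16 of 11910 tested genes were called, 15 of them lower. Of these 16, 6 belonged to the 15 tested genes of the fat list: Adipoq (-4.09 ± 0.20), Cfd (-5.89 ± 0.35), Retn (-4.16 ± 0.25), Scd1 (-3.95 ± 0.28), Fabp4 (-2.13 ± 0.19) and Plin4 (-1.96 ± 0.18). H2 3 was the H2 library nearest to the controls for Adipoq, Cfd and Retn, so leaving it out favours these calls and they are no support. With all 6 libraries the adjusted p of Adipoq was 0.353.

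Genes of position along the intestine split the H2 libraries another way. Gata4, a transcription factor of the duodenum and jejunum that is off in the ileum, measured 0.184, 0.171 and 0.136 FPKM in the control libraries and 0.181, 11.2 and 11.3 FPKM in the H2 libraries. Lactase, Lct, an enzyme of the same region, measured 0, 0.0229 and 0.0145 FPKM in the control libraries and 0.0121, 3.25 and 1.498 FPKM in the H2 libraries. The alkaline sphingomyelinase Enpp7 stood at 1.66, 3.46 and 3.798 FPKM in the control libraries and 1.92, 149 and 185 FPKM in the H2 libraries, and the brush border phospholipase Plb1 at 0.299, 1.298 and 1.55 FPKM in the control libraries and 1.74, 107 and 95.7 FPKM in the H2 libraries. H2 2 and H2 3 lay far above the other 4 libraries for each gene, and H2 1 lay with the controls or just above them. The homeobox genes Hoxb9 and Hoxb7, which pattern the body axis toward its tail end, ran opposite. Hoxb9 measured 16.9, 13.7 and 14.3 FPKM in the control libraries and 17.1, 0.164 and 1.03 FPKM in the H2 libraries, and Hoxb7 15.2, 15.2 and 13.1 FPKM in the control libraries and 17.1, 1.83 and 2.83 FPKM in the H2 libraries, with H2 1 slightly above the controls and H2 2 and H2 3 low. Ileal genes were high in all 6 libraries. The ileal bile acid carrier Fabp6 measured 1653, 1548 and 1112 FPKM in the control libraries and 2471, 3060.1 and 1721 FPKM in the H2 libraries, and the bile acid uptake transporter Slc10a2 268, 190.4 and 208 FPKM in the control libraries and 323, 271 and 109.7 FPKM in the H2 libraries. Genes of the distal colon such as Hoxb13 and Hoxa13 were listed at 0 in every library. Without H2 1, 8 genes were called, among them Gata4 (3.39 ± 0.16), Enpp7 (5.44 ± 0.30), Plb1 (5.70 ± 0.31) and the deacetylase Aadac (3.25 ± 0.28) as higher, and Hoxb9 (-3.37 ± 0.27) and Hoxb7 (-2.23 ± 0.20) as lower. Enpp7, Plb1, Aadac, Hoxb9 and Hoxb7 were chosen after their values were seen. H2 1 lay near the controls for Gata4, Enpp7, Plb1, Hoxb9 and Hoxb7, so leaving it out favours their calls. Gata4 was below 1 FPKM in every control library and in H2 1. It passed the filter through H2 2 and H2 3, so its place among the called genes is no support.

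**Figure D1:**
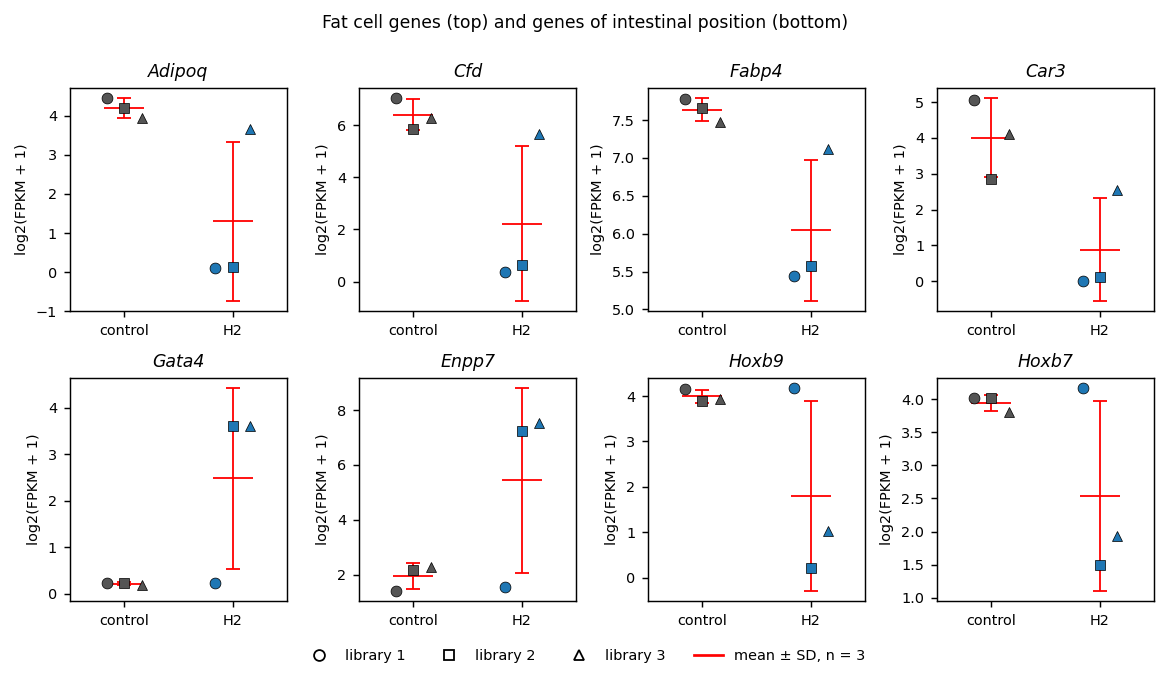
Levels of 4 fat cell genes (top) and 4 genes of position along the intestine (bottom) in each intestine library, as log2(FPKM + 1), with control in grey, H2 in blue, one symbol per library number and the mean ± SD of 3 libraries in red. Axes do not all start at 0. H2 1 and H2 2 lie far below the other libraries for Adipoq, Cfd, Fabp4 and Car3, while H2 2 and H2 3 stand apart for Gata4, Enpp7, Hoxb9 and Hoxb7.

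Smooth muscle genes followed neither group. The muscle myosin Myh11 measured 20.7, 55.4 and 31.4 FPKM in the control libraries and 12.3, 9.21 and 37.02 FPKM in the H2 libraries, and the enteric actin Actg2 19.3, 81.9 and 27.4 FPKM in the control libraries and 11.2, 15.3 and 83.96 FPKM in the H2 libraries. Control 2 and H2 3 were the highest libraries for both. The list of 12 muscle genes, averaged and set against the control mean, stood at -0.51, 0.84 and -0.33 in the control libraries and -0.95, -0.91 and 0.62 in the H2 libraries. Its median difference of -0.45 turned to 0.068 without control 2. Control 2 also stood apart for genes of neutrophil recruitment: Csf3, Il6 and Cxcl2 were at 2.78, 1.16 and 4.05 FPKM there, against levels between 45.98 and 152 FPKM in controls 1 and 3.

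The plot of list means by library sets these patterns beside the other gene groups.

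**Figure D2:**
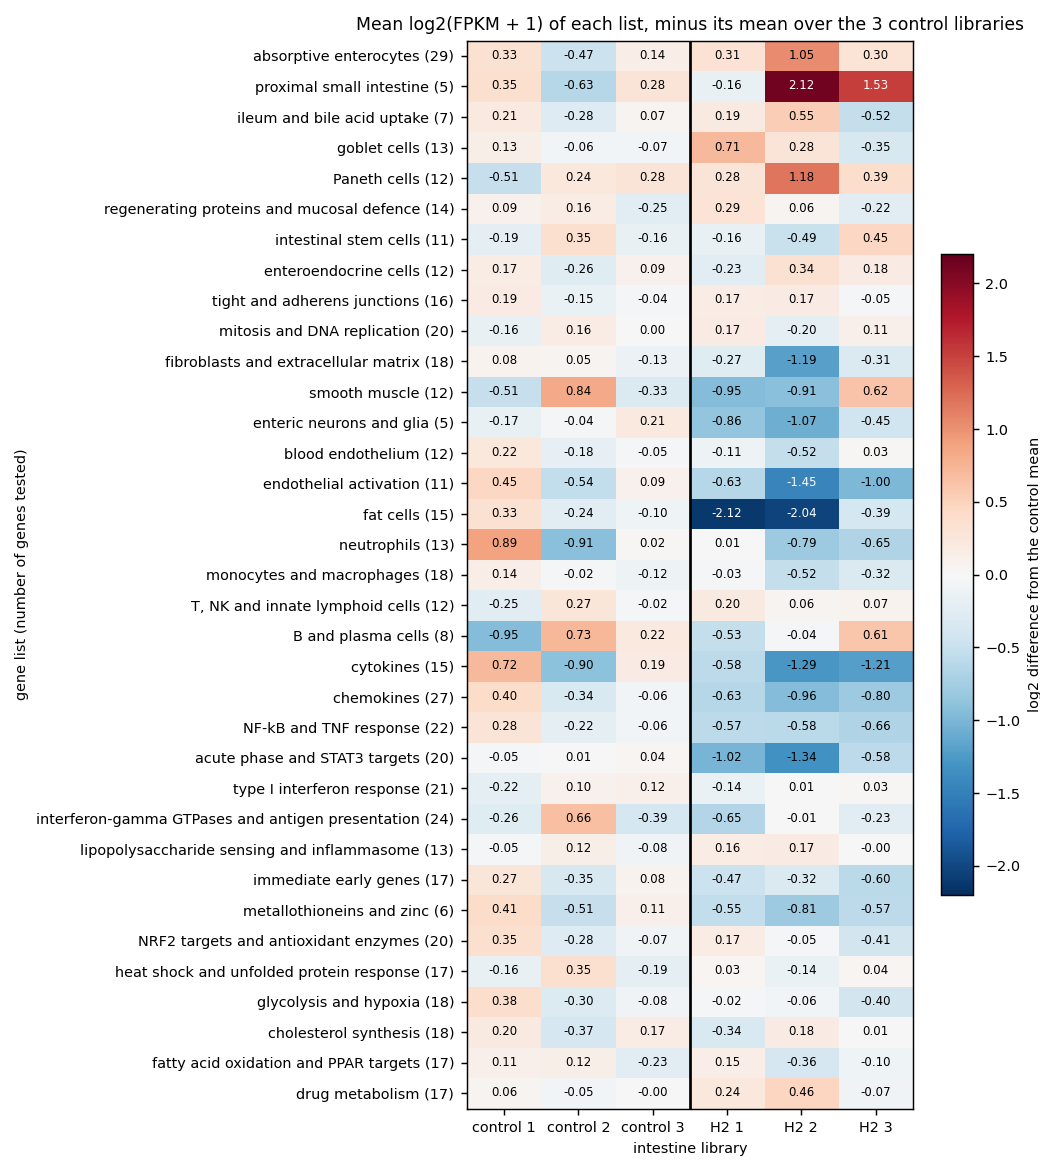
Mean log2(FPKM + 1) over the tested genes of each list with at least 5 tested genes, minus the mean of the 3 control libraries, for the 6 intestine libraries (columns), with red for higher and blue for lower values. The fat list stands at -2.12 and -2.04 in H2 1 and H2 2 and at -0.39 in H2 3, and the proximal list at 2.12 and 1.53 in H2 2 and H2 3 only. The proximal list holds Gata4, which passed the filter through H2 2 and H2 3. The acute-phase, NF-kB and chemokine lists are below every control library in all 3 H2 libraries.

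Genes of inflammatory signalling stood lower in the H2 intestine, though none passed the test over all genes. Of 22 tested members of the NF-kB and TNF list, 10 were lower and 1 was higher in every H2 library, with a median of -0.61 that stayed between -0.65 to -0.48 as each library was left out. Over all tested genes 8.75% were lower in this sense. The stress-induced gene Ier3, a target of NF-kB that guards cells from death, measured 58.7, 18.2 and 39.8 FPKM in the control libraries and 11.2, 8.33 and 11.3 FPKM in the H2 libraries. Zc3h12a, a nuclease that degrades cytokine mRNA, measured 57.97, 24.98 and 42.95 FPKM in the control libraries and 18.5, 18.5 and 13.1 FPKM in the H2 libraries. The TNF-induced gene Tnfaip2 stood at 15.6, 8.34 and 12.8 FPKM in the control libraries and 5.595, 2.702 and 4.87 FPKM in the H2 libraries. In each of these the highest H2 library lay below the lowest control library. The differences were -1.69 ± 0.38, -1.22 ± 0.31 and -1.30 ± 0.29, with adjusted p = 0.326, 0.344 and 0.326. Relb, a subunit of the noncanonical branch, was the member higher in every H2 library, at 35.2, 29.99 and 38.02 FPKM in the control libraries and 43.5, 58.6 and 46.3 FPKM in the H2 libraries. The NF-kB inhibitor gene Nfkbia (228, 109 and 186 in control, 95.7, 166 and 67.2 in H2) and the interferon-induced factor Irf1 (142, 164 and 59.9 in control, 116, 167 and 86.6 in H2) overlapped.

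Acute-phase proteins are made under the control of interleukin 6 and STAT3. Of 20 tested genes of this list, 12 were lower and 1 was higher in every H2 library, against 8.75% and 10.6% over all genes. The median was -0.83 (-1.07 to -0.65 with each library left out). Orm1, a plasma glycoprotein, measured 9.26, 6.46 and 8.35 FPKM in the control libraries and 0.772, 0.547 and 2.76 FPKM in the H2 libraries (difference -2.04 ± 0.33, adjusted p = 0.281). Lbp, which hands lipopolysaccharide to its receptor, measured 11.4, 8.36 and 9.26 FPKM in the control libraries and 4.91, 3.303 and 4.78 FPKM in the H2 libraries. The protease inhibitor Serpina3f, at 12.9, 13.2 and 10.1 FPKM in the control libraries and 5.03, 4.44 and 3.83 FPKM in the H2 libraries, had one of the smallest p-values of the list (difference -1.26 ± 0.17, adjusted p = 0.130). Lipocalin 2, Lcn2, which binds bacterial siderophores, stood at 1737, 664 and 1196 FPKM in the control libraries and 583, 381 and 549.5 FPKM in the H2 libraries, and the serum amyloid gene Saa3 at 3522, 2979 and 3031 FPKM in the control libraries and 1769.9, 1232 and 2701 FPKM in the H2 libraries. The H2 and control values did not meet for any of these genes. Saa1, the member above every control library, measured 5254, 6970.3 and 6044 FPKM in the control libraries and 8592, 9312 and 7188 FPKM in the H2 libraries. Fat cell genes moved with some of this list. Hp and Orm1 were lowest in H2 1 and H2 2, the libraries with little Adipoq, and the part of fat in the list's values was not tested. Without H2 3 both genes were called, Hp at -4.33 ± 0.32 and Orm1 at -2.43 ± 0.20. The list, averaged and set against the control mean, stood at -0.048, 0.012 and 0.036 in the control libraries and -1.02, -1.34 and -0.58 in the H2 libraries, so H2 3, which carried fat cell genes, lay nearest to the controls.

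Cytokine genes were lower on balance and uneven among the controls. Of 15 tested genes, 5 were lower and 1 was higher in every H2 library, against 8.75% and 10.6% over all genes. The list's median was -0.95. Interleukin 1 beta, Il1b, the product of activated myeloid cells, measured 93.9, 17.7 and 80.8 FPKM in the control libraries and 18.6, 7.66 and 13.5 FPKM in the H2 libraries (difference -1.96 ± 0.61, adjusted p = 0.353). Il6 measured 49.96, 1.16 and 45.98 FPKM in the control libraries and 16.97, 1.74 and 3.03 FPKM in the H2 libraries, and Tnf 6.31, 7.18 and 3.04 FPKM in the control libraries and 4.54, 3.18 and 1.72 FPKM in the H2 libraries. The groups overlapped in all 3 genes. Control 2 lay within the H2 range for Il1b and below every H2 library for Il6. The growth factor Csf3, which calls neutrophils out of the marrow, measured 83.9, 2.78 and 60.02 FPKM in the control libraries and 9.92, 3.36 and 2.303 FPKM in the H2 libraries, again with control 2 among the H2 values. Il1a, at 14.3, 1.51 and 8.48 FPKM in the control libraries and 0.571, 1.098 and 0.826 FPKM in the H2 libraries, the receptor antagonist Il1rn, at 45.3, 5.32 and 14.4 FPKM in the control libraries and 2.96, 2.11 and 4.09 FPKM in the H2 libraries, and the macrophage growth factor Csf1, at 8.27, 4.98 and 4.34 FPKM in the control libraries and 3.098, 1.46 and 3.05 FPKM in the H2 libraries, did not overlap. Csf2, the gene of another myeloid growth factor, stood at 3.65, 0.9098 and 3.57 FPKM in the control libraries and 0.874, 0 and 0.104 FPKM in the H2 libraries. Csf2 passed the filter through its control values. The anti-inflammatory cytokine Il10 was below the filter, at 2.82, 0.435 and 0.709 FPKM in the control libraries and 0.263, 0.09295 and 0.234 FPKM in the H2 libraries, with every H2 library under every control library. A pair of epithelial alarm cytokines stood the other way: Il33 measured 15.8, 11.4 and 12.6 FPKM in the control libraries and 25.7, 36.05 and 17.1 FPKM in the H2 libraries, with no overlap, and Il18 129, 104 and 97.9 FPKM in the control libraries and 185, 281 and 117 FPKM in the H2 libraries, where H2 3 lay among the controls.

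Of 27 tested chemokine genes, 5 were lower and 2 were higher in every H2 library, against 8.75% and 10.6% over all genes. The list's median was -0.37. Cxcl10, an interferon-induced attractant of T cells, measured 74.9, 75.2 and 32.5 FPKM in the control libraries and 17.1, 11.2 and 5.003 FPKM in the H2 libraries (difference -2.40 ± 0.46, adjusted p = 0.326). Ccl5, made by T cells and macrophages, measured 31.1, 17.96 and 19.03 FPKM in the control libraries and 7.14, 4.74 and 8.77 FPKM in the H2 libraries (difference -1.58 ± 0.27, adjusted p = 0.326). Ccl3, a macrophage chemokine, stood at 88.5, 6.097 and 16.7 FPKM in the control libraries and 2.97, 1.58 and 2.95 FPKM in the H2 libraries. In these 3 genes every H2 library lay under every control library. The neutrophil attractants Cxcl2, at 152, 4.05 and 46.7 FPKM in the control libraries and 6.92, 0.583 and 3.83 FPKM in the H2 libraries, and Cxcl1, at 111, 8.93 and 83.7 FPKM in the control libraries and 18.6, 2.204 and 11.7 FPKM in the H2 libraries, and the monocyte attractant Ccl2, at 168, 49.1 and 115 FPKM in the control libraries and 64.7, 16.04 and 27.7 FPKM in the H2 libraries, overlapped. For Cxcl1 and Cxcl2 control 2 lay within the H2 range, and for Ccl2 it lay below H2 1. Ccl25, which small intestinal epithelium makes to attract T cells, was higher in every H2 library, at 132, 223 and 161 FPKM in the control libraries and 247, 406 and 319 FPKM in the H2 libraries (difference 0.92 ± 0.27), and so was Ccl6, at 105, 250.4 and 166 FPKM in the control libraries and 261, 429 and 261 FPKM in the H2 libraries.

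Interferon-gamma genes divided. Of 24 tested GTPase and antigen presentation genes 2 were lower and 1 was higher in every H2 library. These counts are near the shares of 8.75% and 10.6% over all genes. The guanylate-binding protein Gbp5, which promotes inflammasome assembly, measured 14.2, 21.1 and 11.8 FPKM in the control libraries and 4.53, 4.35 and 4.85 FPKM in the H2 libraries (difference -1.55 ± 0.21, adjusted p = 0.133). Gbp3 of the same family measured 15.9, 20.8 and 13.2 FPKM in the control libraries and 6.86, 11.2 and 8.603 FPKM in the H2 libraries. The class I light chain B2m stood higher, at 870.0, 1657 and 1088 FPKM in the control libraries and 1668, 2029 and 1951 FPKM in the H2 libraries, while the class I heavy chains H2-K1 (499, 559 and 414 in control, 542, 683 and 714 in H2) and H2-D1 (572, 628 and 542 in control, 492, 756 and 702 in H2) overlapped. The list's median of -0.33 turned to 0.019 without control 2. Of 21 type I interferon genes 2 were lower and 1 was higher in every H2 library, with a median of -0.057 that turned to 0.10 without control 3. The antiviral gene Ifit3 was among the lower members, at 17.1, 23.8 and 22.5 FPKM in the control libraries and 16.5, 10.6 and 12.8 FPKM in the H2 libraries, while the interferon regulator Irf7, at 79.01, 102 and 121 FPKM in the control libraries and 111, 133 and 155 FPKM in the H2 libraries, overlapped.

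Genes that sense bacterial products had a median of 0.26 over 13 tested genes, which turned to -0.038 after rescaling to TPM. Gsdmd, the pore-forming effector of pyroptosis, was the member higher in every H2 library, at 303, 264 and 222 FPKM in the control libraries and 421, 656 and 387 FPKM in the H2 libraries. Irak3, an inhibitor of Toll-like receptor signalling, measured 10.2, 3.26 and 6.02 FPKM in the control libraries and 3.29, 1.44 and 2.67 FPKM in the H2 libraries, and the inflammasome adaptor Pycard 78.1, 110.4 and 108 FPKM in the control libraries and 109, 212 and 151 FPKM in the H2 libraries, with overlap in both.

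Endothelial activation genes hold the molecules by which vessels catch leukocytes and start clotting. Of 11 tested genes 4 were lower in every H2 library and none was higher, against 8.75% and 10.6% over all genes. The median was -0.75 (-1.23 to -0.62 with each library left out). The adhesion molecule Icam1 measured 23.7, 14.6 and 14.5 FPKM in the control libraries and 7.76, 3.55 and 6.66 FPKM in the H2 libraries (difference -1.43 ± 0.29, adjusted p = 0.326). P-selectin, Selp, measured 14.1, 7.69 and 15.1 FPKM in the control libraries and 6.27, 3.29 and 4.91 FPKM in the H2 libraries, and tissue factor, F3, the starter of coagulation, 23.3, 14.3 and 22.8 FPKM in the control libraries and 9.895, 4.89 and 6.48 FPKM in the H2 libraries. None of these 3 genes overlapped, and H2 2 was the lowest library for each. Of 12 tested general endothelial markers 0 were without overlap, with a median of -0.17 (-0.39 to 0.10 with each library left out), and H2 2 was again the library with the lowest mean. The junction genes Cdh5 and Cldn5 differed by -0.61 ± 0.36 and -0.66 ± 0.29. The 2 lists were not tested against each other. Pecam1 measured 10.8, 11.8 and 11.3 FPKM in the control libraries and 13.3, 6.81 and 10.9 FPKM in the H2 libraries.

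**Figure D3:**
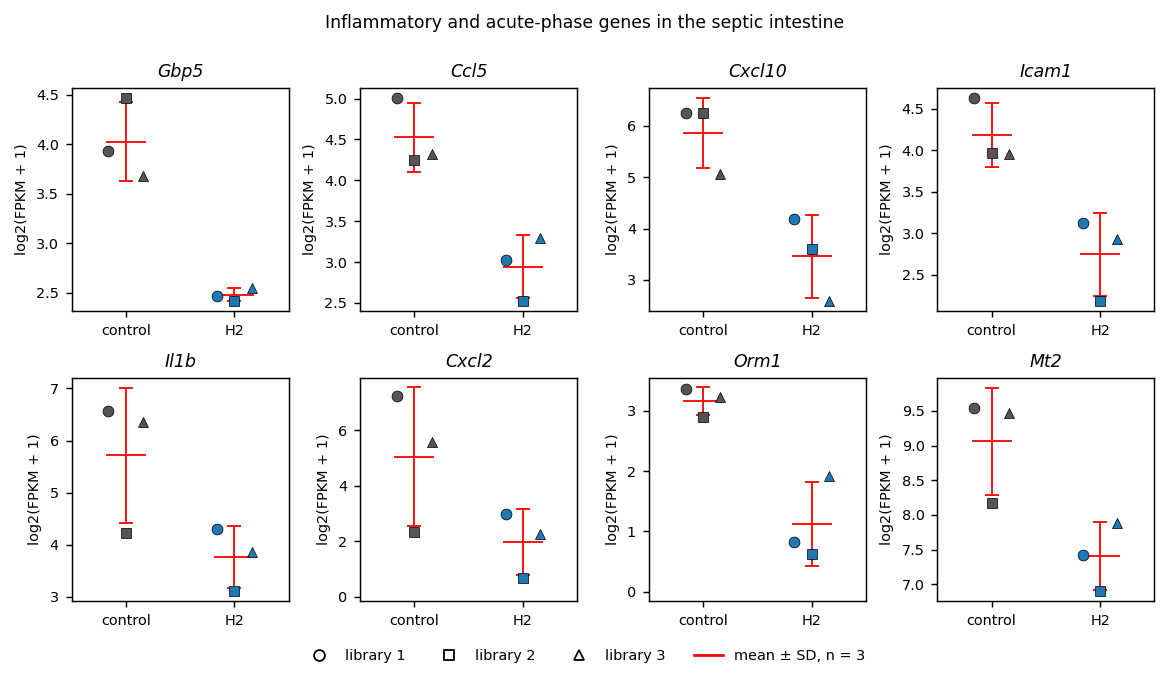
Levels of 8 inflammatory and acute-phase genes in each intestine library, as log2(FPKM + 1), with control in grey, H2 in blue, one symbol per library number and the mean ± SD of 3 libraries in red. Axes do not all start at 0. The groups do not overlap for Gbp5, Ccl5, Cxcl10, Icam1, Orm1 and Mt2, and control 2 lies among or near the H2 libraries for Il1b and Cxcl2.

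Upstream sequences are shown for 1 gene each of the interferon GTPase, chemokine and adhesion groups, chosen after their values and matches were seen, where every H2 library was lower and an entry of the RefSeq promoter table exists. Each runs 5′ to 3′ toward the RefSeq start of transcription in GRCm38.p6, and capitals mark letters that match a motif. The motifs, searched on both strands over the 250 bases before the start, were an NF-kB site (GGGA, any base, TTTCC), a STAT site named GAS (TTC, any 3 bases, GAA, which reads the same on both strands) and an interferon element named ISRE (GAAA, any 2 bases, GAAA). No matches of different motifs overlapped in these sequences. For Gbp5 the 34 bases next to the start are left out, since an annotated exon of another transcript holds them.
Gbp5, chr3:142496684-142496899, plus strand: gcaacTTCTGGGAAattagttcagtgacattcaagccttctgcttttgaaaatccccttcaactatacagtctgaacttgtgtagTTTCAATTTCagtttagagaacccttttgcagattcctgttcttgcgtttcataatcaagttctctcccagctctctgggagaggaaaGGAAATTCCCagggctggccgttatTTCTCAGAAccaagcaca
Cxcl10, chr5:92348890-92349139, minus strand: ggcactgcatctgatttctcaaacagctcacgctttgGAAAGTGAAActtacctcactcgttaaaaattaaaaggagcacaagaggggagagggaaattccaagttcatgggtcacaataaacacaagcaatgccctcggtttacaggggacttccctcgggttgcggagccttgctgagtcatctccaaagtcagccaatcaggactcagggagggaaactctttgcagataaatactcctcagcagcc
Icam1, chr9:21015690-21015939, plus strand: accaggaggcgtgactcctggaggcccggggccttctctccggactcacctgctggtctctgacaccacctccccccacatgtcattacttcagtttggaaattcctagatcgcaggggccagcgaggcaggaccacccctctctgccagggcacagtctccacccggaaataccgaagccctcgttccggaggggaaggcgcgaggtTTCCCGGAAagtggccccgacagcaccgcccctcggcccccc
Gbp5 held 1 match of the NF-kB letters, 2 of GAS and 1 of ISRE. Cxcl10 held 1 ISRE match and Icam1 1 GAS match. Among the promoters of 9037 tested genes with an entry, 0.409% held the NF-kB letters, 6.17% a GAS match and 2.85% an ISRE match. Among the 10 genes with the smallest p toward lower levels, 5 had an entry, of which 2 (Gbp5 and Serpina3f) held a match and 3 (BB123696, Dusp2 and Ly6c2) held none. Of the 8 with an entry toward higher levels 0 held a match. A match describes the letters only, and no binding was measured. Near matches were not searched, so the lack of a match does not mean that no site is present.

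Stress-response genes gave smaller groups. The metallothioneins bind zinc and copper and are induced by glucocorticoids and cytokines. Mt1 measured 549, 266 and 629.8 FPKM in the control libraries and 142, 132 and 231 FPKM in the H2 libraries, and Mt2 746, 287 and 705 FPKM in the control libraries and 172, 119 and 235 FPKM in the H2 libraries, without overlap (differences -1.47 ± 0.37 and -1.65 ± 0.41, adjusted p = 0.344 and 0.344). The other 4 tested genes of that list overlapped. The 17 immediate early genes had a median of -0.41. Of these, 5 were lower in every H2 library and none was higher, against 8.75% and 10.6% over all genes. Among them were the growth-factor-induced Egr1, at 24.4, 8.58 and 16.2 FPKM in the control libraries and 8.33, 2.57 and 3.54 FPKM in the H2 libraries, the phosphatase gene Dusp1, at 45.4, 13.3 and 26.2 FPKM in the control libraries and 10.6, 9.18 and 7.87 FPKM in the H2 libraries, and Csrnp1, at 7.17, 3.71 and 6.49 FPKM in the control libraries and 1.61, 2.36 and 1.63 FPKM in the H2 libraries. Of 20 NRF2 targets and antioxidant genes 2 were higher and 2 lower in every H2 library, a share of 20.0% against 19.3% for all genes. The heme oxygenase Hmox1 overlapped, at 33.3, 6.68 and 10.5 FPKM in the control libraries and 10.3, 5.07 and 6.15 FPKM in the H2 libraries. The redox proteins Prdx1 (437, 514 and 476 in control, 673, 1077 and 543 in H2) and Txn1 (695, 709.9 and 792 in control, 1019, 1392 and 901 in H2) were higher in every H2 library. The inducible nitric oxide synthase Nos2, at 108, 132 and 53.1 FPKM in the control libraries and 105, 102 and 49.4 FPKM in the H2 libraries, overlapped.

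Enterocyte genes stood higher in the H2 libraries on balance. Of 29 tested enterocyte genes 6 were higher and 1 was lower in every H2 library, with a median of 0.47 (0.12 to 0.61 with each library left out, lowest without control 2, and 0.17 after rescaling to TPM). Over all genes 10.6% were higher in this sense. The liver-type fatty acid carrier Fabp1 measured 300.2, 982 and 229.9 FPKM in the control libraries and 1172, 1566 and 1442 FPKM in the H2 libraries (difference 1.76 ± 0.50, adjusted p = 0.353). Apoa1, a protein of the lipoproteins that carry absorbed fat, measured 6078, 3061 and 5041 FPKM in the control libraries and 7595, 15542 and 7235 FPKM in the H2 libraries, and Apoc3 28.2, 36.1 and 40.2 FPKM in the control libraries and 54.8, 110.5 and 104 FPKM in the H2 libraries. All H2 libraries lay above all control libraries for these 3 genes, and H2 2 was the highest. The brush border protease Mep1b measured 442, 437 and 441 FPKM in the control libraries and 754, 862 and 581 FPKM in the H2 libraries, the chloride exchanger Slc26a3 40.9, 37.3 and 34.2 FPKM in the control libraries and 69.1, 70.9 and 48.4 FPKM in the H2 libraries and the cystine transporter Slc7a9 166, 189 and 179 FPKM in the control libraries and 275, 359 and 217 FPKM in the H2 libraries. Aminopeptidase N, Anpep, was the member lower in every H2 library, at 1161, 932 and 951 FPKM in the control libraries and 650.1, 802 and 643 FPKM in the H2 libraries. Fabp2 (1043, 451 and 541 in control, 685, 3746 and 808 in H2) and the lipoprotein gene Apoa4 (1764, 375 and 738 in control, 1228, 2995 and 1714 in H2) overlapped. The position genes moved in 2 of the 3 H2 libraries, and their part in the enterocyte values was not tested. The list, averaged and set against the control mean, stood at 0.33, -0.47 and 0.14 in the control libraries and 0.31, 1.05 and 0.30 in the H2 libraries. H2 1, where Gata4 was at the control level, and H2 3, where it was high, both lay just below control 1. Only H2 2 lay above every control library.

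Paneth cell genes stood higher in the H2 libraries on balance. Of 12 tested genes 5 were higher in every H2 library, against 10.6% over all genes. The median was 0.64 (0.37 to 0.79 with each library left out, 0.34 after rescaling to TPM). Lysozyme, Lyz1, measured 3867, 5741 and 5709.6 FPKM in the control libraries and 7339, 9071 and 6938 FPKM in the H2 libraries (difference 0.62 ± 0.26, adjusted p = 0.396). The lectin Itln1 measured 1371, 1579.5 and 1442 FPKM in the control libraries and 2057, 3508 and 1961 FPKM in the H2 libraries, the angiogenin Ang4 521, 682 and 693 FPKM in the control libraries and 881, 2096 and 852 FPKM in the H2 libraries and the protease Mmp7, which activates defensins, 505, 672 and 704 FPKM in the control libraries and 883, 1363 and 718 FPKM in the H2 libraries. The defensins Defa21 (4164, 6687 and 7888 in control, 6089, 8896 and 6612 in H2), Defa22 (3334, 7675 and 8653 in control, 6419.8, 10238 and 6629 in H2) and Defa24 (11109.9, 19561 and 20842 in control, 16776, 50576 and 23766 in H2) overlapped, with H2 2 the highest library for each and control 1 the lowest. Alpha-defensin genes are near copies of each other, so how reads were divided among them is uncertain.

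Mucosal defence genes were among the most abundant of all. Reg3b, a lectin that kills bacteria, took 12.1% to 14.7% of the summed FPKM of a library. It measured 89213, 92036 and 93299 FPKM in the control libraries and 121596, 167973 and 93683 FPKM in the H2 libraries, and H2 3 lay only just above the controls (difference 0.44 ± 0.30). Reg3g, at 48142, 58003 and 51385 FPKM in the control libraries and 66913, 75096 and 51753 FPKM in the H2 libraries, overlapped. Goblet cell genes had a median of 0.19 over 13 tested genes, which turned to -0.12 after rescaling to TPM. The trefoil peptide Tff3, at 3764, 3496 and 3936 FPKM in the control libraries and 4809, 8088 and 4223 FPKM in the H2 libraries, and the folding enzyme Agr2, at 944, 1012 and 1055 FPKM in the control libraries and 2423, 3349 and 1096 FPKM in the H2 libraries, were higher in every H2 library, while the mucin Muc2 (279, 146 and 135 in control, 347, 98.8 and 111 in H2) followed no group. Stem cell genes and genes of mitosis and replication had medians of 0.0015 and 0.060. Over all genes 10.6% were higher and 8.75% were lower in every H2 library. Of 11 stem cell genes 0 were without overlap, and of 20 genes of mitosis 1 was higher and 1 was lower, the latter being the nucleotide reductase subunit Rrm2, at 33.6, 14.6 and 29.4 FPKM in the control libraries and 11.7, 10.04 and 11.7 FPKM in the H2 libraries. Of 16 junction genes 2 were higher and 1 lower, with the claudin Cldn15, which forms cation pores between enterocytes, at 33.5, 78.9 and 58.8 FPKM in the control libraries and 96.1, 146 and 159.9 FPKM in the H2 libraries (difference 1.27 ± 0.34, adjusted p = 0.346), and the tight junction scaffold Tjp1 lower, at 30.4, 21.8 and 22.8 FPKM in the control libraries and 20.6, 20.2 and 18.3 FPKM in the H2 libraries. The drug metabolism list had a median of 0.28, which turned to -0.019 after rescaling to TPM. Of its 17 tested genes 5 were higher and 1 was lower in every H2 library, against 10.6% and 8.75% over all genes. Among the higher ones were the sulfotransferase Sult1b1, at 33.4, 52.5 and 45.8 FPKM in the control libraries and 79.5, 162 and 84.99 FPKM in the H2 libraries, and the cytochrome Cyp2c66, at 0.294, 1.104 and 0.609 FPKM in the control libraries and 2.13, 3.23 and 2.78 FPKM in the H2 libraries. Cyp2c66 lay below 1 FPKM in controls 1 and 3 and passed the filter through its H2 values.

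**Figure D4:**
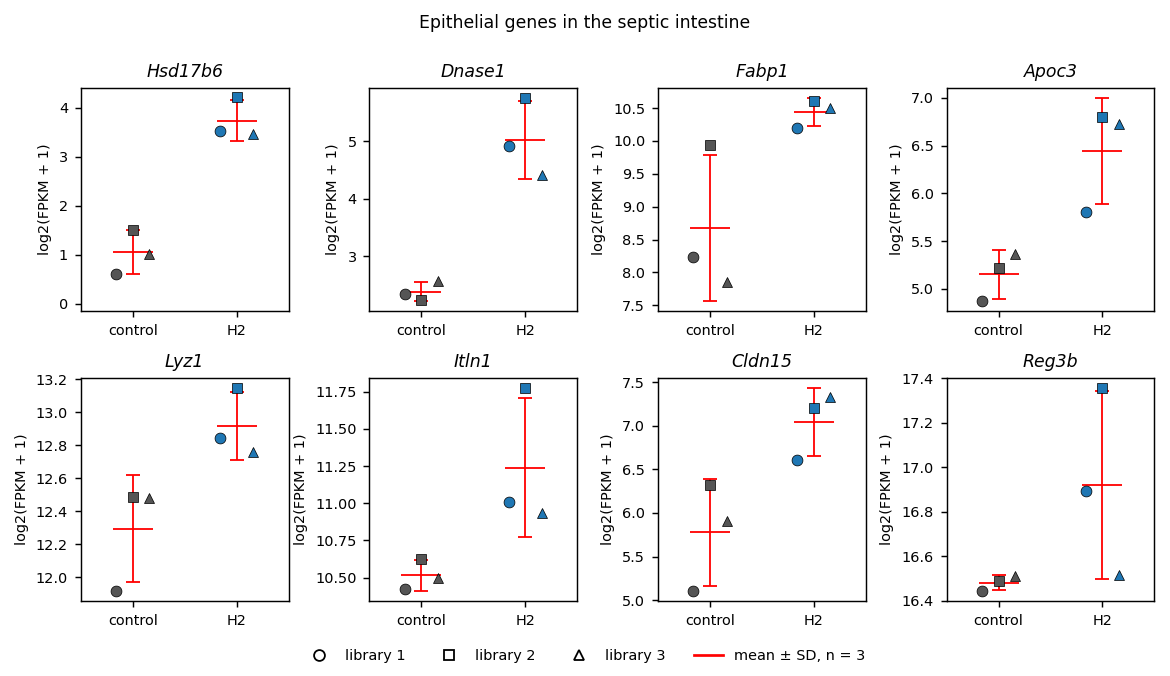
Levels of 8 genes of the epithelium, or with the smallest p toward higher levels in H2, in each intestine library, as log2(FPKM + 1), with control in grey, H2 in blue, one symbol per library number and the mean ± SD of 3 libraries in red. Axes do not all start at 0. The groups do not overlap for any of the 8 genes, and for Reg3b the lowest H2 library lies only just above the controls.

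Stromal genes were lower in part. Of 18 tested fibroblast and matrix genes 5 were lower in every H2 library and none was higher, against 8.75% and 10.6% over all genes. The median of -0.37 shrank to -0.015 without H2 2. Thrombospondin 1, Thbs1, measured 77.3, 18.8 and 33.99 FPKM in the control libraries and 7.395, 5.62 and 11.9 FPKM in the H2 libraries, the protease inhibitor Timp1 67.1, 25.1 and 62.4 FPKM in the control libraries and 13.4, 9.47 and 19.6 FPKM in the H2 libraries and fibronectin, Fn1, 7.997, 8.17 and 6.49 FPKM in the control libraries and 2.73, 1.36 and 4.43 FPKM in the H2 libraries. None of these overlapped. Collagen I, Col1a1, at 3.22, 6.898 and 3.296 FPKM in the control libraries and 5.01, 1.66 and 5.103 FPKM in the H2 libraries, and decorin, Dcn, at 167, 129 and 183 FPKM in the control libraries and 177, 95.3 and 70.7 FPKM in the H2 libraries, did. Of 13 genes of enteric neurons and glia 8 were below the filter. The 5 tested members were lower by their means, 2 of them without overlap, against 8.75% over all genes. Uchl1, a ubiquitin hydrolase of neurons, measured 5.34, 5.96 and 7.097 FPKM in the control libraries and 0.844, 1.41 and 4.204 FPKM in the H2 libraries, and the neuronal tubulin Tubb3 2.76, 4.23 and 3.43 FPKM in the control libraries and 1.43, 0.674 and 2.27 FPKM in the H2 libraries, with H2 3 nearest to the controls. Elavl4, another defining neuronal gene, was below 1 FPKM in all 6 libraries.

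Immune cell markers were mixed. Of 13 neutrophil genes 1 was lower in every H2 library, the glycoprotein gene Lrg1, at 220.2, 181 and 185 FPKM in the control libraries and 147, 79.6 and 111 FPKM in the H2 libraries. The calprotectin subunits S100a8, at 518, 70.8 and 237 FPKM in the control libraries and 211, 170.3 and 133 FPKM in the H2 libraries, and S100a9, at 534, 49.03 and 152 FPKM in the control libraries and 193, 89.2 and 101 FPKM in the H2 libraries, overlapped, with control 1 the highest library and control 2 the lowest. Of 18 monocyte and macrophage genes 3 were lower and 2 higher in every H2 library, against 8.75% and 10.6% over all genes. The higher ones were the chemokine receptors Ccr2, at 0.495, 1.39 and 0.6399 FPKM in the control libraries and 2.03, 1.57 and 1.599 FPKM in the H2 libraries, and Cx3cr1, at 0.307, 0.808 and 0.806 FPKM in the control libraries and 1.65, 1.12 and 1.43 FPKM in the H2 libraries. Ccr2 lay below 1 FPKM in controls 1 and 3 and Cx3cr1 in every control library. Both passed the filter through their H2 values, so their count as higher is no support. The monocyte surface gene Ly6c2 measured 5.78, 5.06 and 5.401 FPKM in the control libraries and 3.04, 2.41 and 2.46 FPKM in the H2 libraries (difference -0.82 ± 0.15, adjusted p = 0.326), arginase, Arg1, 27.5, 10.4 and 11.9 FPKM in the control libraries and 1.48, 1.37 and 5.48 FPKM in the H2 libraries, and osteopontin, Spp1, 48.9, 13.2 and 24.1 FPKM in the control libraries and 1.61, 6.5 and 8.497 FPKM in the H2 libraries. The resident macrophage complement genes C1qa, at 32.5, 49.3 and 30.7 FPKM in the control libraries and 53.1, 33.6 and 39.9 FPKM in the H2 libraries, and C1qb, at 34.96, 48.02 and 40.5 FPKM in the control libraries and 51.99, 34.2 and 40.3 FPKM in the H2 libraries, overlapped. T, NK and innate lymphoid cell genes had a median of 0.083 over 12 tested genes, and B and plasma cell genes one of -0.0044 over 8, both of which changed sign in other fits. The B cell receptor subunit Cd79a ranged from 1.20 FPKM in control 1 to 16.03 FPKM in H2 3, and libraries of both groups lay near 1 FPKM and above 5 FPKM.

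Mast cell proteases were higher in the H2 libraries, most of all in H2 2. Mcpt1, a protease of mucosal mast cells, measured 0.918, 1.997 and 2.22 FPKM in the control libraries and 3.96, 10.2 and 3.04 FPKM in the H2 libraries, and Mcpt2 0.329, 0.805 and 0.567 FPKM in the control libraries and 2.08, 7.09 and 1.57 FPKM in the H2 libraries, with every H2 library above every control library (differences 1.20 ± 0.39 and 1.36 ± 0.41). Mcpt2 was below 1 FPKM in every control library and passed the filter through its H2 values, so its place among the tested genes is no support. The receptor Kit, which mast cells share with the pacemaker cells of the gut, ran opposite, at 3.27, 4.31 and 3.35 FPKM in the control libraries and 1.905, 1.11 and 3.202 FPKM in the H2 libraries. The eosinophil lectin Siglecf measured 1.05, 1.21 and 1.26 FPKM in the control libraries and 2.44, 2.48 and 1.34 FPKM in the H2 libraries, without overlap. The other mast cell genes Cpa3, Mcpt4 and Fcer1a were below 1 FPKM in every library.

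Genes of energy metabolism showed no common direction. Of 18 glycolysis and hypoxia genes 3 were lower and 2 were higher in every H2 library, against 8.75% and 10.6% over all genes. The list's median was 0.019. The hexokinases Hk2, at 118, 94.5 and 84.1 FPKM in the control libraries and 78.2, 36.7 and 25.97 FPKM in the H2 libraries, and Hk1, at 20.8, 4.803 and 6.69 FPKM in the control libraries and 4.63, 3.799 and 3.69 FPKM in the H2 libraries, and the glycolytic regulator Pfkfb3, at 69.99, 52.95 and 44.1 FPKM in the control libraries and 40.3, 26.8 and 17.7 FPKM in the H2 libraries, were the lower ones. Ldha, which makes lactate, measured 767, 559 and 583 FPKM in the control libraries and 886, 1237 and 847 FPKM in the H2 libraries, and the carbonic anhydrase Car9, a target of the hypoxia factor, 15, 13.9 and 10.4 FPKM in the control libraries and 19.4, 16.4 and 18.3 FPKM in the H2 libraries. All 3 H2 libraries lay beyond the controls in each of these 5 genes. They make up 27.8% of the tested list, against 19.3% without overlap over all genes. Of 17 genes of fatty acid oxidation 2 were lower, the dehydrogenase Acadl, at 278, 242 and 212 FPKM in the control libraries and 202, 201 and 179 FPKM in the H2 libraries, and Pdk4, a kinase that holds back glucose oxidation, at 12.9, 12.1 and 6.51 FPKM in the control libraries and 3.598, 1.76 and 4.13 FPKM in the H2 libraries. Of 18 cholesterol synthesis genes 0 were without overlap. Of 17 heat shock and unfolded protein genes 3 were lower, among them the small heat shock protein Hspb1, at 39.1, 44.7 and 35.7 FPKM in the control libraries and 9.65, 11.6 and 33.5 FPKM in the H2 libraries, with H2 1 and H2 2 low as for the fat genes, and Herpud1, at 105, 57.4 and 82.9 FPKM in the control libraries and 49.9, 49.2 and 49.02 FPKM in the H2 libraries.

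Further lists held few genes without overlap. Over all genes 10.6% were higher and 8.75% were lower in every H2 library. Of 12 enteroendocrine genes 1 was higher, neurotensin, Nts, at 70.6, 50.4 and 67.05 FPKM in the control libraries and 84.9, 146 and 72.9 FPKM in the H2 libraries. Of 14 regenerating and mucosal defence genes 2 were higher and 1 was lower, with a median of 0.042 that changed sign in other settings, and with Reg1 at 4.32, 5.47 and 4.78 FPKM in the control libraries and 7.97, 19.1 and 8.11 FPKM in the H2 libraries beside Reg3b and Lcn2. The tuft cell kinase Dclk1, at 1.57, 1.93 and 1.61 FPKM in the control libraries and 1.38, 1.29 and 1.497 FPKM in the H2 libraries, was the 1 lower of 4 tuft cell genes. Of 7 ileal genes 1 was higher, Fabp6, and of 5 proximal genes 1, Fabp1. Mmrn1 was the 1 higher of 4 lymphatic genes, at 4.48, 5.85 and 5.67 FPKM in the control libraries and 6.87, 8.69 and 6.73 FPKM in the H2 libraries, and colipase, Clps, the 1 higher of 2 tested pancreatic genes, at 96.8, 143 and 127 FPKM in the control libraries and 185, 256 and 184 FPKM in the H2 libraries. The 2 tested mesothelial genes, the 3 tested dendritic cell genes and the 1 tested red cell gene, Hba-a1, at 15.7, 5.21 and 14.3 FPKM in the control libraries and 7.97, 1.705 and 3.63 FPKM in the H2 libraries, overlapped.

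The single gene that passed the test was Mir1901, a microRNA gene. It was listed at 2569, 4192 and 2658 FPKM in the control libraries and at 0 in all 3 H2 libraries, with an adjusted p of 4.3e-07. In the liver and lung it was listed at 0 in all 12 libraries. Mir1901 thus passed the filter through its control values. Its annotation in mm10 spans 78 bases of chromosome 18, from 11840361 to 11840438 on the minus strand, and overlaps an exon of Cables1, which runs on the plus strand, and of Gm6277, which runs on the minus strand. Cables1 itself measured 26.5, 8.96 and 21.2 FPKM in the control libraries and 9.48, 13.1 and 8.83 FPKM in the H2 libraries. Poly(A) libraries do not capture mature microRNAs, FPKM of so short a gene rests on few bases, and the strand setting of the counting is not given in the sources used here. Of 46 tested microRNA genes 38 were listed at 0 in at least 1 intestine library, and 2 had groups without overlap. When predicted and small RNA genes were left out, 0 genes were called, with 1467 at an unadjusted p under 0.05.

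Apart from Mir1901 the smallest p-values belonged to the following genes, none of them called. On the higher side Hsd17b6 led, an enzyme that turns over androgens and retinol, at 0.535, 1.85 and 1.04 FPKM in the control libraries and 10.6, 17.7 and 10.1 FPKM in the H2 libraries (difference 2.69 ± 0.29, adjusted p = 0.0786). The DNA-degrading enzyme Dnase1 measured 4.04, 3.73 and 4.89 FPKM in the control libraries and 29.1, 52.7 and 20.3 FPKM in the H2 libraries (difference 2.64 ± 0.32, adjusted p = 0.0786). The pregnancy-specific glycoprotein Psg18 measured 5.13, 3.71 and 5.96 FPKM in the control libraries and 22.9, 18.9 and 16.3 FPKM in the H2 libraries, and Smpdl3b, a lipid-modifying enzyme that restrains Toll-like receptor signalling in macrophages, 16.3, 16.1 and 15.8 FPKM in the control libraries and 37.1, 40.8 and 37.6 FPKM in the H2 libraries. For each of these genes the lowest H2 library was more than 2 times the highest control library. Their adjusted p was 0.0786, as it was for the predicted gene 1700119H24Rik. They were followed by the phosphate transporter family member Slc17a4 (12.6, 7.05 and 11.9 in control, 32.9, 29.3 and 29.3 in H2), endothelin 2, Edn2 (4.92, 6.26 and 4.59 in control, 13.6, 11.3 and 18.6 in H2), the noncoding RNA AI427809, the butyrophilin-like gene Btnl2 (18.2, 14.5 and 16.5 in control, 29.5, 41.5 and 35.1 in H2), Ypel2 and the zinc finger gene Zfp747, at adjusted p = 0.209 to 0.326. Hsd17b6 lies at 127990936 to 128007611 of chromosome 10 on the minus strand and Dnase1 at 4036942 to 4040024 of chromosome 16 on the plus strand, in mm10.

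Toward lower levels the smallest p-values were those of the noncoding RNA BB123696, at 4.102, 6.99 and 4.04 FPKM in the control libraries and 0.961, 0.826 and 0.613 FPKM in the H2 libraries (difference -1.72 ± 0.22, adjusted p = 0.117), Serpina3f, Gbp5 and the phosphatase gene Dusp2 of activated leukocytes, at 5.34, 3.82 and 5.401 FPKM in the control libraries and 0.971, 0.869 and 1.58 FPKM in the H2 libraries (difference -1.45 ± 0.20, adjusted p = 0.133). Orm1, Ccl5, the kinase anchor Akap2, Ly6c2, Map3k8, a kinase that NF-kB signalling uses to start TNF production, and Lbp followed. Map3k8 measured 4.07, 3.09 and 4.82 FPKM in the control libraries and 1.32, 1.29 and 1.75 FPKM in the H2 libraries. In all 10 genes every H2 library lay below every control library, as a small p selects for. BB123696 was below 1 FPKM in every H2 library and passed the filter through its control values, so its place among the tested genes is no support. Gbp5 spans 142493978 to 142522344 of chromosome 3 on the plus strand in mm10.

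The spread used for the test decides how many genes pass. When the 6 intestine libraries were tested with the spread pooled over all 18 libraries of the study, 312 genes were called (2.62%), 181 higher (1.52%) and 131 lower (1.10%), and 302 of them had groups without overlap. The median within-group SD over 13362 genes was 0.24 in the H2 intestine and 0.19 in the control intestine. Among the groups that this fit adds it was 0.12 and 0.11 in the H2 liver and lung, and 0.18 and 0.20 in the control liver and lung. Of the listed genes, 36 passed there. Higher were the enterocyte genes Apoc3 (1.29 ± 0.23, adjusted p = 0.0115), Mep1b (0.71 ± 0.12), Slc26a3 and Slc7a9, the ileal gene Fabp6, Agr2, Itln1, Mcpt1, Mcpt2, Gsdmd, Cyp2c66, Sult1b1 and colipase, Clps. Lower were Gbp5 (-1.55 ± 0.30, adjusted p = 0.0161), Icam1 (-1.43 ± 0.29, adjusted p = 0.0189), F3, Csf1, Csf2, the NF-kB subunit Rela (-0.64 ± 0.16), Tnfaip2, Lbp, Orm1, Hp, the interleukin 6 receptor Il6ra, Steap4, Csrnp1, Arg1, Spp1, Fn1, Thbs1, the collagen cross-linker Lox, Uchl1, Rrm2, Hk2, Cfd and Retn. Mcpt2 and Cyp2c66 had passed the filter through their H2 values and Csf2 through its control values. The pooled fit assumes that the H2 intestine varies like the other groups.

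The H2 difference of the intestine was also set against the mean of the H2 differences of the liver and the lung, in 1 fit of all 18 libraries over 13362 genes. It called 73 genes (0.546%), with 2634 (19.7%) at an unadjusted p under 0.05. Like the pooled fit above, it assumes that all groups vary alike. The intestine's difference was the higher one for 45 genes and the lower one for 28. For 66 of the 73 the intestine's groups did not overlap, and 17 were below 1 FPKM in all 12 liver and lung libraries, where no change could be seen and the difference between organs restates that of the intestine. Psg18, Edn2, Btnl2, AI427809, BB123696 and Mir1901 were among these 17. Hsd17b6 and Slc17a4 were listed at 0 in every lung library, and reached 9.595 and 4.54 FPKM in the liver. Among the 10 smallest p-values were Mir1901, Psg18 (1.79 in the intestine, 0.023 in the liver and 0 in the lung, adjusted p = 1.5e-04), BB123696, Edn2, Btnl2, AI427809, Hsd17b6 and Dnase1. For Dnase1 the differences were 2.64 in the intestine, 0.38 in the liver and 0.23 in the lung (adjusted p = 0.0103). Dnase1 reached at most 1.16 FPKM in the liver and 0.507 FPKM in the lung, so little change could be seen there. The others among the 10 were the matrix receptors Mxra8 (-0.76 in the intestine, 0.76 in the liver and 0.36 in the lung) and Antxr1 (-0.80, 0.16 and 0.57). Mxra8 was lower in the H2 intestine and higher in the other 2 organs. Antxr1 was lower in the H2 intestine and higher in the lung. It reached at most 0.373 FPKM in the liver, so its difference there rests on values near 0.

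For Reg3g the H2 difference was 0.29 in the intestine, -1.79 in the liver and -0.99 in the lung, with adjusted p = 0.0467 between organs. Its sign in the intestine depended on the scaling. Agr2 differed in the same way (1.05 in the intestine, -0.061 in the liver and -1.11 in the lung, adjusted p = 0.0467), as did Pycard (0.63, -0.32 and -1.27, adjusted p = 0.0467). Agr2 reached at most 0.135 FPKM in the liver, so little change could be seen there. The lactate dehydrogenase gene Ldha (0.63, -0.33 and -0.74) and the mitotic cyclin Ccnb1 (0.38, -0.11 and -1.17, with at most 0.248 FPKM in the liver) were also called. The panel cytokines were not: Il6 stood at -1.57 in the intestine, -1.90 in the liver and -2.99 in the lung, with adjusted p = 0.758 for the difference, and Cxcl2 had adjusted p = 0.829. The count of 73 was 11, 220 and 13 without control intestine 1, 2 and 3, and 149, 12 and 1018 without H2 intestine 1, 2 and 3.

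**Figure D5:**
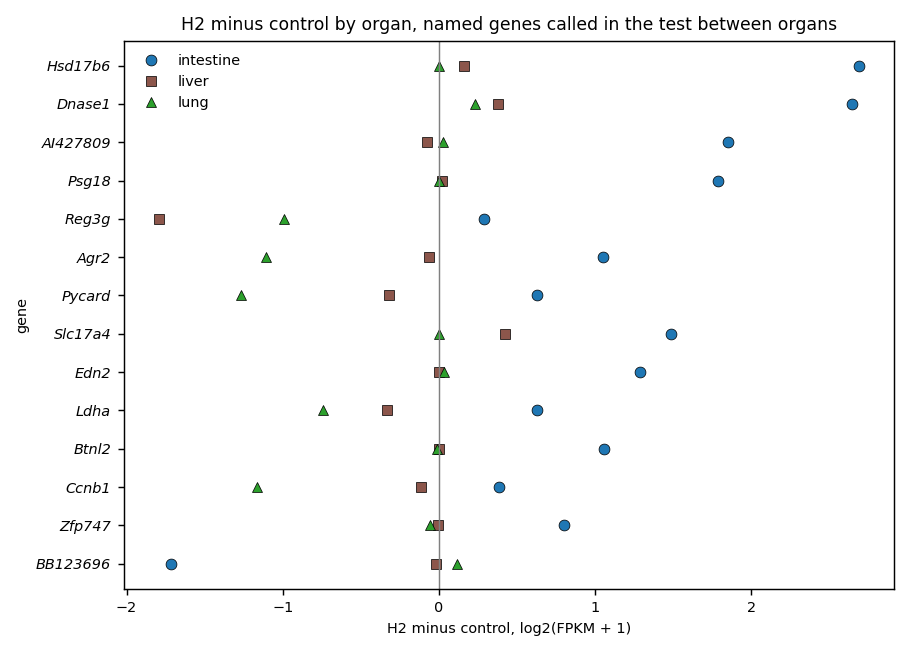
H2 minus control on log2(FPKM + 1) in the intestine (blue circles), the liver (brown squares) and the lung (green triangles) for the 14 genes named in the text by rule, other than Mir1901, that the test between organs called, ordered by the difference between the intestine and the mean of the other organs. Points are differences of means of 3 libraries. Hsd17b6, Dnase1, Psg18 and AI427809 lie above 1.7 in the intestine. Psg18 and AI427809 are below 1 FPKM in all liver and lung libraries, and Hsd17b6 is at 0 in the lung. Dnase1 reaches at most 1.16 FPKM in the liver and 0.507 FPKM in the lung. Agr2 and Ccnb1 are below 1 FPKM in all liver libraries.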

How the data were processed

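Levels are FPKM per gene symbol, as the authors deposited them, 1 column per library. According to the submitters' processing notes Cufflinks 2.2.1, TopHat2 2.0.13, SAMtools 0.1.19 and Bowtie2 2.2.3 were among the tools, and mm10 was the build. Options, annotation and strand setting are not given in the sources used here. Per the labels, RNA was purified with miRNeasy Micro and libraries were made with a stranded TruSeq mRNA kit. FPKM hold no counts, so no count model was used and no counting interval is given. A repeat of control lung 3 (1 column) was not used.

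Genes averaging 1 FPKM or more in the 6 intestine libraries (11910) entered limma 3.58.1 (R 4.3.3) as log2(FPKM + 1) (empirical Bayes with a trend, two-sided, Benjamini-Hochberg adjusted p under 0.05), after a check on simulated data. With 3 against 3 libraries an exact permutation test cannot go below 0.1.

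The 43 gene lists (658 symbols, 652 found, 553 tested) and the members were chosen with earlier results of these data known. The rule names called genes, or else the 10 with the smallest p per direction without predicted and small RNA genes, up to 6 members of a list (3 by level, 3 by p), the 10 smallest p between organs and a panel of 20 genes. Chosen beyond it, with values in view, were Mir1901, Cables1, Gm6277, 1700119H24Rik, Scgb1a1, genes called without 1 library, further list members, and list members called with the pooled spread. Some members of these lists are not reported here. Positions are from GENCODE vM21 and promoters from RefSeq.

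For equal replicate numbers the r of deviations from the group means was 0.16, -0.11 and -0.025. For unequal numbers it lay between -0.15 and 0.17. Deviations of 3 libraries sum to 0 within a group, so these values cannot settle whether libraries were paired. Alternatives were other pseudocounts, filters, scalings and variance models, array weights, leaving out small RNA genes, blocking on the replicate number, fitting all 18 libraries, and leaving out each library. Setting the controls against each H2 library alone was added after seeing the data.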

Additional observations from a re-analysis of the deposited data

Results flagged for a closer look

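The H2 difference of the intestine differed from the mean of those of liver and lung, by a test of the difference itself in the fit of 18 libraries, for 15 of the genes named. That fit assumes that all groups vary alike. The median within-group SD was 0.24 in the H2 intestine and 0.12 and 0.11 in the H2 liver and lung. On log2(FPKM + 1) the intestine stood higher for Hsd17b6 by 2.61, Dnase1 by 2.34, AI427809 by 1.88, Psg18 by 1.77, Reg3g by 1.68, Agr2 by 1.63, Pycard by 1.42, Slc17a4 by 1.28, Edn2 by 1.27, Ldha by 1.17, Btnl2 by 1.06, Ccnb1 by 1.02 and Zfp747 by 0.84. It stood lower for BB123696, at -1.77, and for Mir1901, at -11.58, a value that depends on the pseudocount since the gene was listed at 0 in all H2 libraries and in the other organs. Psg18, Edn2, Btnl2, AI427809 and BB123696 were also below 1 FPKM in all 12 liver and lung libraries. For these 5 the value restates the difference of the intestine. Hsd17b6 and Slc17a4 were at 0 in the lung. Dnase1 reached at most 1.16 FPKM in the liver and 0.507 FPKM in the lung, so little change could be seen there. Agr2 and Ccnb1 reached at most 0.135 and 0.248 FPKM in the liver. Of 218 named genes other than Mir1901, 14 were called by this test, against 73 of 13362 (0.546%) over all tested genes. Many of the named genes were chosen by a small p in the intestine. The difference of the intestine enters this test, so the larger share among named genes is no support. With groups of 3 libraries no single library was tested as an outlier.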

How the results depend on the processing

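Of 11910 tested genes 1 was called, and Mir1901 was called in each fit that tested it. The count was 3 after rescaling to TPM, 2 with a robust empirical Bayes fit, 11 with array weights, 0 without predicted and small RNA genes and 312 with all 18 libraries in 1 fit. Leaving out 1 library at a time gave 2 to 16. The controls against H2 1, H2 2 or H2 3 alone gave 14, 24 and 9 genes, where the lone library is assumed to vary like the controls. The replicate block gave 3 (Mir1901, Hsd17b6 and Cxcl10), and since only numbers are shared this is no paired analysis of animals. Genes lower in every H2 library numbered 551 at a mean of at least 5 FPKM, and TPM gave 314 higher and 2213 lower. The count of the test between organs was 15 and 134 at pseudocounts of 0.1 and 5, 11 at a mean of at least 5 FPKM, 48 with median-of-ratios scaling, 15 after quantile normalization, 40 with the replicate block (22 of them among the 73), and 11 to 1018 without 1 library. The cause was not tested.

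With 1 library left out, Nos2 ranged from -0.55 to 0.18, S100a8 from -1.05 to 0.37, Muc2 from -0.75 to 0.15 and Col1a1 from -0.39 to 0.21. Reg3g was at 0 after quantile normalization, -0.018 after TPM and -0.017 with H2 3 alone. With array weights Nos2 was at 0.50, Muc2 at 0.38 and Col1a1 at 0.17. Nos2 was at 0.098 without control 2, 0.18 without H2 3, 0.20 with H2 1 alone and 0.17 with H2 2 alone. Muc2 was at 0.15 without control 1, 0.15 without H2 2, 0.070 without H2 3 and 0.97 with H2 1 alone. Col1a1 was at 0.11 without control 2, 0.21 without H2 2, 0.20 with H2 1 alone and 0.22 with H2 3 alone. S100a8 was at 0.37 without control 1 and 0.034 with H2 1 alone, Il6 at 0.055 with H2 1 alone and Myh11 at 0.16 with H2 3 alone. Of 43 list medians 17 kept their sign in every setting, among them acute phase, NF-kB, cytokines, chemokines, endothelial activation, fat, enterocytes and Paneth cells. Depth limits genes of low level, and FPKM give no interval for it.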
